A study of Mus musculus with 12 samples.

Results

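The mitochondrial ribosomal protein genes are 76 of the 20504 genes counted on coding sequence (CDS) in mouse brain, chosen by symbol alone as Mrpl or Mrps followed by a number and at most 1 letter and 1 further digit. The symbols begin with Mrpl in 47 genes and with Mrps in 29. By what is known of the assembled particle, 49 of the products sit in the large subunit and 26 in the small subunit. Mrps30 and Mrps18a carry small-subunit names but sit in the large subunit, and Mrps36 belongs to neither, being a subunit of the 2-oxoglutarate dehydrogenase complex. Homologues of bacterial ribosomal proteins make up 48 of the genes, and the other 28, Mrps36 included, have no bacterial counterpart. RefSeq (GRCm38.p6) placed all 76 genes, on 17 chromosomes, with 10 on chromosome 11 and 8 on chromosome 17.

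Mitochondria keep their own ribosome, which makes a small set of hydrophobic subunits of the respiratory chain and ATP synthase from mitochondrial mRNA. All of its proteins are encoded in the nucleus, translated by cytosolic ribosomes and imported, so that a footprint on one of these mRNAs reports a cytosolic ribosome. Neurons depend on oxidative phosphorylation, and mTOR, the kinase that AZD-8055 inhibits, controls the translation of many mRNAs of the cytosolic ribosome through a pyrimidine tract that starts with C at the cap (a 5′ TOP).

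All samples came from adult Camk2a-RiboTag mice, in which a Camk2a promoter drives Cre in principal excitatory neurons of the forebrain and Cre switches Rpl22 to an HA-tagged form. Mice A and B received vehicle (the labels write "Untreated") and mice C and D a single oral dose of 100 mg/kg AZD-8055, with tissue taken 1 h later, and the homogenate of each of these 4, which holds all cell types, was split for ribosome profiling and for poly(A) RNA-Seq. Mice E and F, also labelled untreated, gave RNA-Seq of homogenate (input) and of HA-immunoprecipitated polysomes (IP), and no footprints. With 2 mice per group, p-values rest on the spread between these few libraries. The main tests took libraries of the same mouse as independent. CDS reads per library numbered 3503873 to 9259938 for footprints and 9309496 to 15585831 for RNA-Seq, and the lowest count of any member in any library was 50, for Mrps11 in the footprints of mouse C. The members took nearly the same share of CDS reads in RNA-Seq and in footprints of mice A to D, between 0.287% and 0.316%. The share was 0.245% and 0.260% in the inputs of mice E and F and 0.580% and 0.631% in their IPs.

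**Figure D1:**
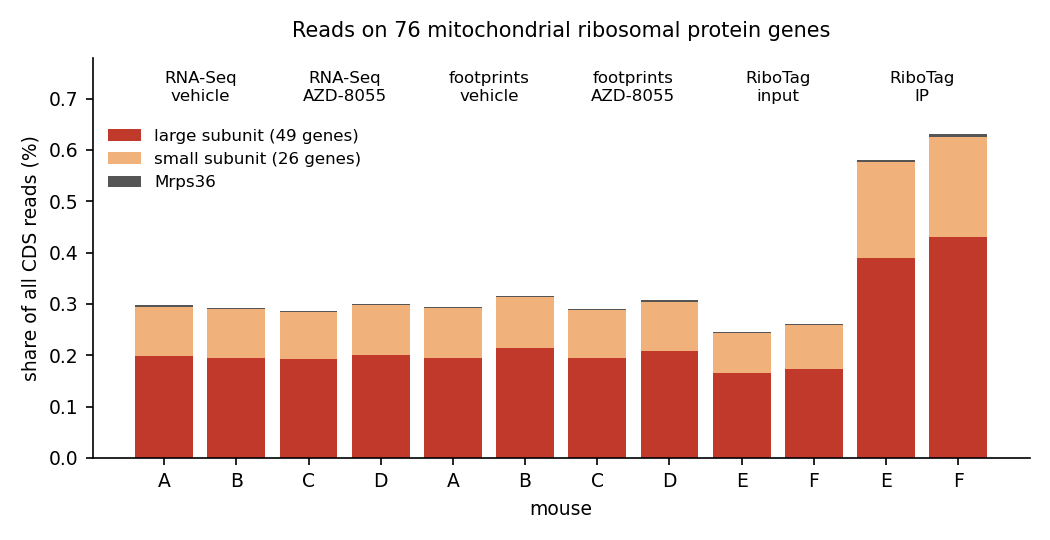
Share of all CDS reads (%, y axis) that fell on the 76 genes in each of the 12 libraries, split into large-subunit genes, small-subunit genes and Mrps36 (stacked bars, 1 bar per library). The 8 libraries of mice A to D lie between 0.287% and 0.316%, the inputs at 0.245% and 0.260%, and the IPs at 0.580% and 0.631%.

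Sequences around the start of transcription were read from RefSeq promoters (GRCm38.p6), which held an entry for 67 of the 76 members. A start base of C followed by at least 4 pyrimidines, the form of a TOP, was found in 0 of 67 members, in 22.4% of 58 cytosolic ribosomal protein genes and in 2.73% of all 15153 genes of the table with an entry. With the C allowed up to 5 bases to either side, the shares were 25.4%, 48.3% and 21.9%. The windows below run from 5 bases before the annotated start to 24 bases after it, 5′ to 3′ on the strand of the gene, for members and for 4 cytosolic ribosomal protein genes. The members are those with a promoter entry among the 5 with the lowest and the 5 with the highest change of translation efficiency under AZD-8055, 3 from each end, and the cytosolic genes are those with the lowest change. They are shown because the tract at the cap is the sequence feature known for mTOR, and capitals mark the longest run of C or T of at least 5 bases that starts with C, or the first where 2 are equally long.
Mrps25, chr6:92183999-92184028, minus strand: ccaagattcccggagccgcgctggtccgcg
Mrpl41, chr2:24975074-24975103, minus strand: cgccctggtgaccagtcggcgaggCTCTTg
Mrps18c, chr5:100798754-100798783, plus strand: ggaagggcggagaaccatggccgctctggt
Mrpl34, chr8:71464921-71464950, plus strand: tcccagaaggcattgtcaaggagcccagag
Mrps7, chr11:115604135-115604164, plus strand: CCTCCgaggtcctgacagcggccaagatgg
Mrpl12, chr11:120484632-120484661, plus strand: CTCCCggatagagcgtcgcttccgcttaga
Rps12, chr10:23787185-23787214, minus strand: cggccaccgccggCCTTTTCCCCTgccgcc
Rpl13a, chr7:45128721-45128750, minus strand: gacaagaCCTCCTCCTTTCCCaggcggctg
Rpl37, chr15:5116608-5116637, plus strand: gcggaagcttatccacaggaagtggcgggg
Rpl13, chr8:123102345-123102374, plus strand: cctgattttgattggcgtttgagattggcc
Rps12 and Rpl13a held runs of 11 and 14 bases that began 8 and 2 bases after the annotated start. The marked runs of the members were 5 bases long, before the annotated start in Mrps7 and Mrpl12 and 19 bases after it in Mrpl41. Mrpl12 held another of the same length after the start, and the windows of Mrps25, Mrps18c and Mrpl34 held none. Rpl37 and Rpl13 held none either, although their change was among the lowest, and a window without a run says only that these letters are not next to the annotated start.

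Further upstream, 3 motifs were searched on both strands from 250 bases before the start to 50 after it. The ETS core CCGGAAG stood in 35.8% of the 67 members and in 13.3% of all genes with an entry. The YY1 motif AAGATGGC stood in 17.9% and 3.76%, and the NRF1 motif GCATGCGC in 11.9% and 4.26%. The first 2 can share 3 bases, the third overlaps its own reverse complement, and 33 members held the ETS or the YY1 motif. Among nuclear genes of the respiratory chain the shares were 24.2%, 13.6% and 15.2%, and among cytosolic ribosomal protein genes 41.4%, 8.62% and 5.17%. The stretches below show 1 member for each motif, the one with the largest RiboTag change described further on among members with a motif before the start, with the motif in capitals in the orientation in which it was found.
Mrpl27, ETS, chr11:94653719-94653758, plus strand: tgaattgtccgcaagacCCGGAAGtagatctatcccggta
Mrps12, YY1, chr7:28741997-28742036, minus strand: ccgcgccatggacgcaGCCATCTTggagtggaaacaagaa
Mrps18b, NRF1, chr17:35916640-35916679, minus strand: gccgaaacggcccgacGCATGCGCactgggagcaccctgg
A match is a stretch of letters, not a measured site of binding, and no factor was measured in these libraries.

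In vehicle mice the members were translated at about the efficiency of an average gene. Translation efficiency (TE) is the ratio of footprints to RNA-Seq reads on the CDS of a gene in 1 mouse, each divided by the size factor of its library. The median log2 TE of the members was 0.13, against 0.016 over 10882 genes, and it was 0.13 in mouse A and 0.10 in mouse B. The SD across members was 0.61 and fell to 0.46 without the 2 highest, against 0.99 across all genes. In the related lists the SD was 0.45 for genes of the respiratory chain, 0.51 for aminoacyl-tRNA synthetases, 0.56 for translation factors and 0.64 for cytosolic ribosomal proteins. It was lowest, 0.23, for 7 mitochondrial ribosomal proteins with other symbols and highest, 0.68, for 21 assembly factors. A total of 47 of the 76 members lay above the median of all genes. In both mice 42 members lay above it and 23 below, where 4957 of the 10882 genes lay above and 4957 below. The typical SD between mice A and B for 1 member was 0.13, so that neighbours in the order could not be told apart.

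**Figure D2:**
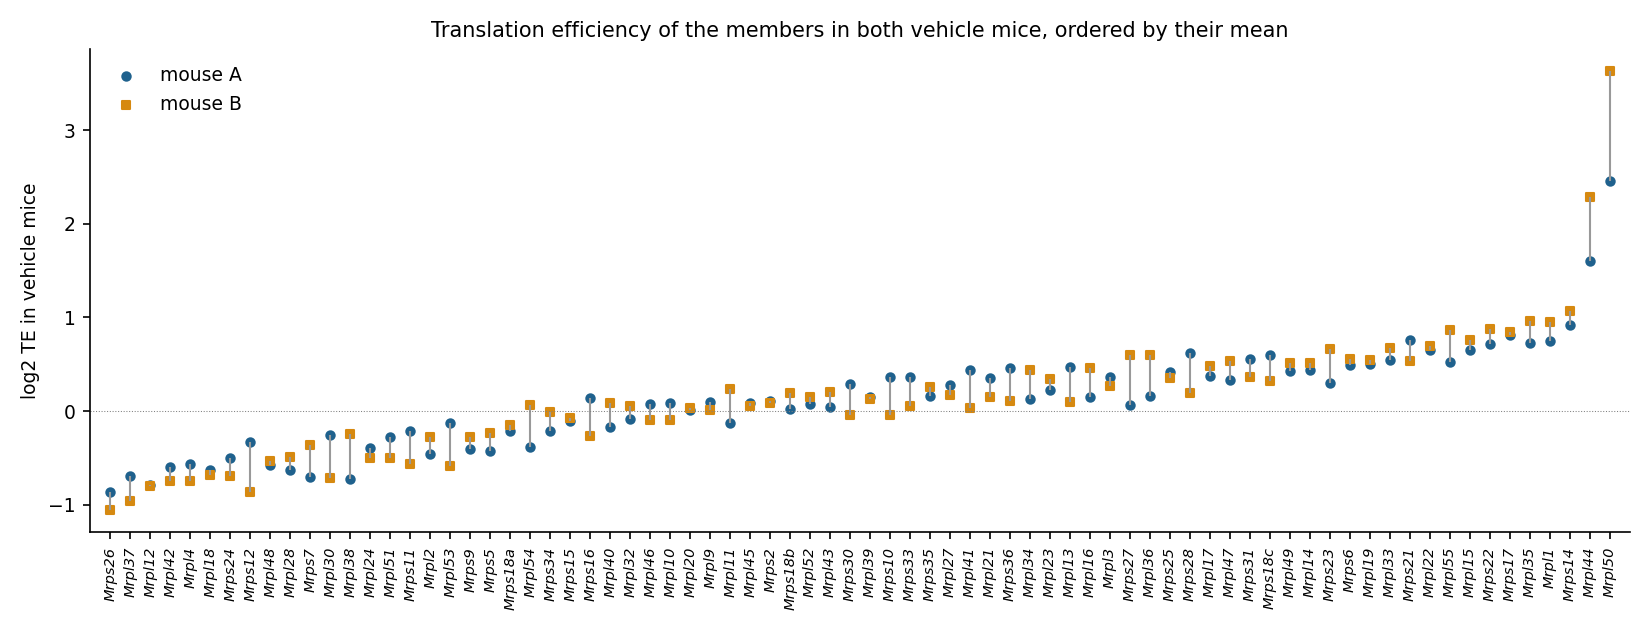
Log2 TE (y axis) of the 76 members in vehicle mouse A (circles) and mouse B (squares), ordered by the mean, with a line joining the 2 mice. All but Mrpl44 and Mrpl50 lie between −1.06 and 1.07 in both mice.

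Cytosolic ribosomal protein genes had a median log2 TE of −0.94, with 71 of 76 below the median of all genes. The nuclear genes of the respiratory chain, many of whose partners the mitochondrial ribosome makes, had a median of 0.33. Within the mitochondrial translation machinery the median was 0.086 for 16 translation factors, 0.061 for 7 ribosomal proteins with other symbols such as Chchd1 and Aurkaip1, −0.26 for 21 assembly factors and −0.39 for 18 mitochondrial aminoacyl-tRNA synthetases. Differences between these lists were not tested.

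Mrpl50 and Mrpl44, which encode large-subunit proteins without a bacterial counterpart, stood far above the rest. Mice A, B, C and D gave 627, 1290, 602 and 1128 normalised footprints of Mrpl50, beside RNA-Seq counts of 114, 104, 118 and 96.2. Its log2 TE was therefore 2.46 in mouse A and 3.63 in mouse B, a mean of 3.04 that placed it at the 99.8th percentile of all genes. It was the only member whose TE differed more than 2-fold between the vehicle mice, as 79 of the 10882 genes did. Footprints of Mrpl50 were low in mice A and C and high in mice B and D, so that the spread lay within both treatment groups. CDS reads of Mrpl50 made up 22.98% of its exon reads over the 8 RNA-Seq libraries, the lowest share of any member (median 85.7% over the members and 63.7% over 12216 genes). What this means for the height of its TE was not tested.

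Mrpl44, whose product has a ribonuclease III fold, gave 678 and 1143 normalised footprints in mice A and B and 795 and 959 in mice C and D, beside 223, 234, 213 and 240 RNA-Seq reads. Its log2 TE was 1.61 and 2.29 in the vehicle mice, and its CDS reads were 83.7% of its exon reads. The span of Mrpl44 overlaps that of Wdfy1 in RefSeq, one of 19 members whose span overlaps that of a protein-coding gene. By count alone, which also depends on the length of the CDS, the most vehicle footprints fell on Mrpl50, Mrpl44, Mrpl3, Mrps33 and Mrps14.

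Below these came Mrps14 (0.92 and 1.07 in mice A and B), a small-subunit protein with a bacterial homologue, and the large-subunit genes Mrpl1 (0.75 and 0.95), of the L1 stalk, and Mrpl35 (0.72 and 0.96). At the other end of the order, Mrps26 gave log2 TEs of −0.86 and −1.06 and Mrpl37 of −0.69 and −0.96, both without bacterial counterparts. Mrpl12, the stalk protein held in several copies per ribosome while most others are held once, gave −0.79 and −0.80, at the 19.99th percentile of all genes. Mrpl42 and Mrpl4 followed at −0.67 and −0.66 on average. Both ends of the order thus held proteins of the large and the small subunit. The 5 stalk genes had a median of −0.16 and the 5 genes of the exit tunnel 0.28, close to the 0.27 of the 34 core genes. The median was 0.45 for the 2 genes of the L1 stalk, −0.04 for the 7 of the central protuberance and 0.21 for the other 23. The medians of the large and small subunits were 0.12 and 0.18.

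The 3 paralogues of bacterial S18 differed in their place in the order. Mrps18c, the one that takes the bacterial position, gave log2 TEs of 0.60 and 0.32 in mice A and B, Mrps18b 0.02 and 0.19, and Mrps18a −0.21 and −0.15. Mrps30 (0.29 and −0.04) and Mrps36 (0.46 and 0.10) lay among the other members.

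The next comparison asked how these mRNAs were translated when mTOR was inhibited. No member passed the test of a TE change 1 h after AZD-8055 (edgeR quasi-likelihood test of the interaction of library kind and treatment, Benjamini-Hochberg adjusted p under 0.05), where 0.865% of 11797 genes did in either direction and 0.788% were lower. At an unadjusted p under 0.05 there were 3 members, Mrps25, Mrpl12 and Mrpl15, and 796 of the 11797 genes, a larger share. DESeq2 gave 0 members at the adjusted threshold, which it did not give for 5 of them, and 0 at the unadjusted. The median log2 TE change was −0.04 for the members and −0.01 for all genes, and single members ranged from −0.36 to 0.38.

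**Figure D3:**
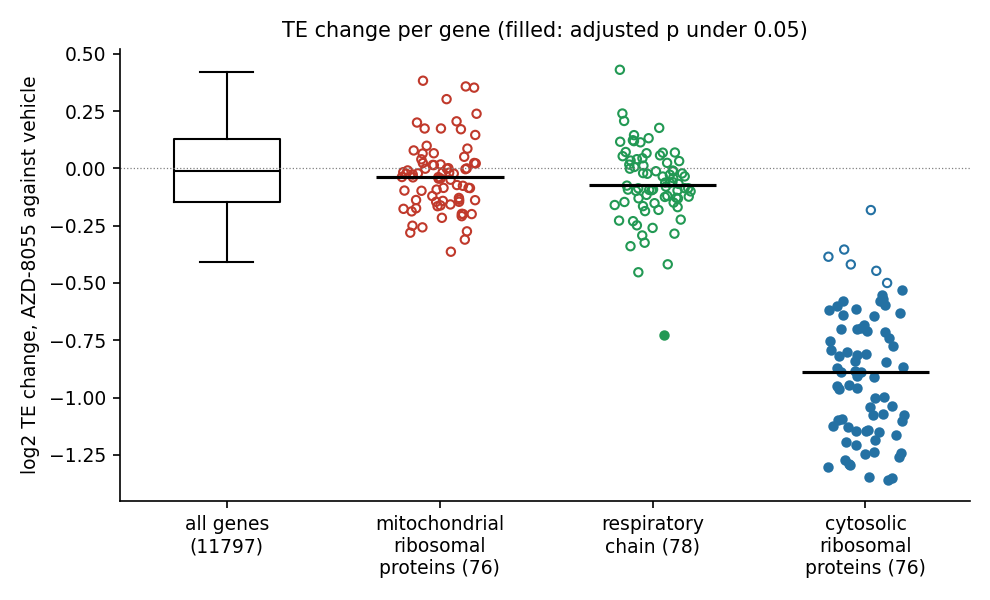
Log2 TE change in AZD-8055 against vehicle mice (y axis) for all 11797 genes tested (box, median and quartiles, with whiskers at the 5th and 95th percentiles) and for single genes of 3 lists (points, filled where the edgeR adjusted p is under 0.05, with a bar at the median). The members lie between −0.36 and 0.38 with no filled point, and the cytosolic ribosomal protein genes between −1.36 and −0.18 with 70 of 76 filled.

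The 95% interval of the change lay within 1 log2 unit of 0 for 75 of the 76 members. The exception was Mrpl50, at −1.06 to 0.96, whose footprints varied within the groups as described above. In the same fit TE was called lower for 70 of 76 cytosolic ribosomal protein genes, with a median of −0.89, and for 1 of 78 genes of the respiratory chain, Cox7a2l at −0.73. Among the partners of the mitochondrial ribosome 0 of 16 translation factors, 0 of 21 assembly factors, 0 of 18 aminoacyl-tRNA synthetases and 0 of 7 ribosomal proteins with other symbols were called, with 1 gene in all, a translation factor, at an unadjusted p under 0.05. DESeq2 likewise called 0 in the 4 lists, with 1 at the unadjusted threshold. It gave no adjusted p for 7 of the translation factors, 10 of the assembly factors and 7 of the aminoacyl-tRNA synthetases, which could therefore not be called.

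The lowest member was Mrps25, a small-subunit protein without bacterial counterpart. Its log2 TE was 0.42 and 0.35 in mice A and B and 0.08 and −0.03 in mice C and D, so that the groups did not overlap. The change was −0.36 ± 0.14 (SE; edgeR adjusted p = 0.599), with RNA-Seq counts of 268, 259, 281 and 272 and footprints of 358, 331, 297 and 267 in mice A to D. Mrpl15, a core protein of the large subunit, had log2 TEs of 0.65 and 0.76 against 0.43 and 0.36 and a change of −0.31 ± 0.14 (edgeR adjusted p = 0.723).

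Mrpl12 was the only one of the 3 that lay higher, at −0.54 and −0.41 in mice C and D against −0.79 and −0.80, a change of 0.35 ± 0.15 (SE; edgeR adjusted p = 0.682). The largest positive estimate belonged to Mrps28, the mitochondrial relative of bacterial S1, at 0.38 ± 0.23 (adjusted p = 0.801). Its log2 TE of 0.63 and 0.19 in mice A and B overlapped with 1.02 and 0.57 in mice C and D. Mrpl54, also at the stalk, gave 0.36 ± 0.22, with −0.38 and 0.07 against −0.09 and 0.38, again with overlap. The next lowest were Mrpl41 (−0.28 ± 0.15), Mrps18c (−0.27 ± 0.17) and Mrps23 (−0.26 ± 0.18), and the next highest Mrps7 (0.30 ± 0.17) and Mrpl34 (0.24 ± 0.27). Leaving out 1 mouse at a time moved 7 of these estimates by more than 1.5-fold, from −0.44 to −0.08 for Mrpl41, −0.48 to −0.06 for Mrps23 and −0.38 to −0.14 for Mrps18c. The ranges were 0.19 to 0.60 for Mrps28, 0.07 to 0.58 for Mrpl54, 0.09 to 0.48 for Mrps7 and 0.03 to 0.44 for Mrpl34.

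Both AZD-8055 mice lay below both vehicle mice in TE for 16 members, or 21.1%, near the 20.9% of all genes. Both lay above for 5 members, or 6.58%, where 16.3% of all genes did. By place in the particle, the median change was −0.02 for the large and −0.04 for the small subunit, −0.19 for the 5 genes of the exit tunnel, −0.10 for the 7 of the central protuberance and 0.04 for the 5 of the stalk. Mrps18a, Mrps18b, Mrps30 and Mrps36 had changes of −0.14, −0.01, −0.02 and −0.04.

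RNA levels of the same mice were compared alone. No member passed the test of RNA-Seq counts (edgeR quasi-likelihood, 0.148% of 12182 genes called), 1 member, Mrpl20, had an unadjusted p under 0.05, as did 1004 of the 12182 genes, and DESeq2 gave 0 members at either threshold. The median log2 change was −0.005 for the members and −0.003 for all genes. Mrpl20, of the large-subunit core, gave normalised counts of 484 and 459 in mice A and B and 379 and 441 in mice C and D, a change of −0.22 ± 0.09 (edgeR adjusted p = 0.550). Mrpl1 and Mrpl55 marked the ends of the range at −0.30 and 0.23. Without 1 library at a time the estimates ran from −0.47 to −0.15 for Mrpl1, from −0.34 to −0.11 for Mrpl20 and from 0.11 to 0.38 for Mrpl55. All 76 intervals lay within 1 log2 unit of 0. Beside this, the summed normalised count of 9 striatal markers was 13114 and 12371 in the vehicle and 14871 and 15705 in the AZD-8055 RNA-Seq libraries, with 9 of 9 markers positive, 1 called higher and none of them at 0. The part of tissue composition in the RNA changes was not tested.

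In footprints alone no member was called (edgeR quasi-likelihood, 1.03% of 10695 genes called in either direction). The median log2 change was −0.03, against 0.001 for all genes. An unadjusted p under 0.05 was found for 4 members, Mrpl15 (−0.30), Mrps25 (−0.29), Mrps28 (0.38) and Mrps23 (−0.28), and for 1369 of the 10695 genes, a larger share. DESeq2 gave 0 members at either threshold. Mrps28 had 148 and 134 normalised footprints in the vehicle mice and 194 and 175 in the AZD-8055 mice, without overlap, while its RNA-Seq counts were 96.2 and 118 in the vehicle and 95.9 and 118 in the AZD-8055 mice. In the same test 72 of 76 cytosolic ribosomal protein genes were lower, with a median of −0.92.

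When the footprints of mouse C were left out, Mrpl50 alone was called higher (0.30, edgeR adjusted p = 0.0279), and when those of mouse D were left out it alone was called lower (−0.65, adjusted p = 6.26e-07). The call thus turned with the library, and each of these fits rested on 1 treated library. Leaving out mouse C raised the calls over all genes from 5 higher and 105 lower to 355 and 482.

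The RiboTag IP asked which mRNAs were bound to tagged ribosomes of Camk2a-expressing neurons more than their share in the homogenate. Here almost all members rose. On exon counts, 74 of 76 were higher in IP than in input (edgeR quasi-likelihood, adjusted p under 0.05), where 33.7% of 13254 genes were, and 57 of them were more than 2-fold higher, where 11.7% of genes were. The median log2 change was 1.26, against −0.03 over all genes, and it was nearly equal in 49 large-subunit genes (1.27) and 26 small-subunit genes (1.28). Scaling by library totals instead of TMM moved the median of all genes to −0.31 and that of the members to 0.98. The members stood 1.29 above all genes under both scalings, by construction, since a scaling factor moves all genes of a library alike. The calls over all genes, 4463 higher and 4731 lower with TMM, were 3097 and 6118 with library totals. Input and IP of a mouse were taken from the same lysate, so that both started from the same cells.

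The counts per mouse showed the same. With size factors, the members had median log2 ratios of IP to input of 1.37 (mouse E) and 1.38 (mouse F), and 75 of 76 members were above 0 in both mice, as 49.7% of all genes were. No member differed by more than 0.5 between the mice, and the largest difference was 0.39.

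**Figure D4:**
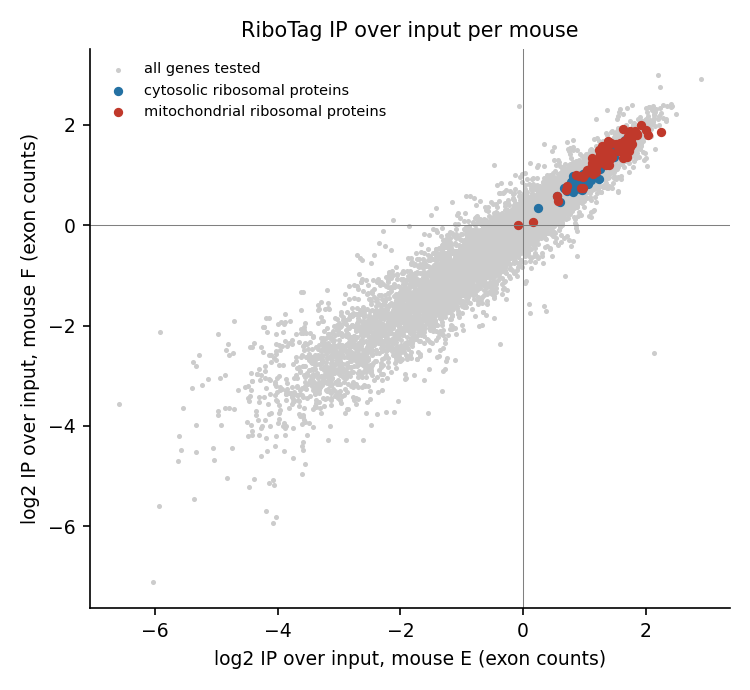
Log2 ratio of IP to input on exon counts in mouse E (x axis) and mouse F (y axis), for all genes tested (grey), cytosolic ribosomal protein genes (blue) and the 76 members (red). All members but Mrps5 lie above 0 in both mice, around medians of 1.37 and 1.38.

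Mrps28 had the largest change, with normalised counts of 102 and 138 in the inputs of mice E and F and 482 and 498 in the IPs, or 1.91 ± 0.18 on the log2 scale (edgeR adjusted p = 0.000248). Mrps12, the small-subunit decoding protein whose promoter is printed above, gave 528 and 510 in input and 2120 and 1908 in IP, or 1.84 ± 0.11. Mrpl54 at the stalk gave 218 and 225 in input and 823 and 896 in IP, also 1.84. In each of the 3 genes both IPs were more than 3-fold above both inputs.

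Mrpl20 (1.79) and Mrpl2 (1.74), both of the large-subunit core, and Mrpl12 (1.73) followed. Next came Mrps16 (1.71), Mrpl28 (1.69), Mrpl23 and Mrps34 (both 1.66), Mrpl14 (1.65) and Mrpl46 (1.63), so that core, stalk, tunnel and protuberance proteins were all among the 12 largest changes. The stalk genes had the highest median of the places in the particle, 1.57 over 5 genes, from 0.85 for Mrpl10 to 1.84 for Mrpl54, and the L1 stalk the lowest, 0.85 over Mrpl1 and Mrpl9. The 7 genes of the central protuberance all rose, by 1.06 to 1.63. Mrps18a, Mrps18b and Mrps18c rose by 1.32, 1.32 and 1.43, Mrps30 by 1.17 and Mrps36 by 1.17. Mrpl44 and Mrpl50, the 2 genes of high TE, rose by 1.45 and 0.74.

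The 2 members that were not called were Mrps5 and Mrpl3, both with bacterial homologues. Mrps5 gave 625 and 581 normalised exon counts in input, against 592 and 583 in IP, a log2 change of −0.15 with an interval of −0.41 to 0.10 (edgeR adjusted p = 0.238). Mrpl3 went from 841 (mouse E) and 921 (mouse F) in input to 939 and 965 in IP, a change of −0.006 with TMM (adjusted p = 0.960), where the size factors behind the printed counts gave a mean log2 ratio of 0.11. The sign of Mrpl3 thus depended on the scaling. Just above them were Mrps22 (0.41, adjusted p = 0.0272), Mrpl24 (0.45, adjusted p = 0.0246) and Mrpl35 (0.58). The calls of the first 2 were not firm. Mrps22 was lost with DESeq2 (73 members higher), with library totals and on leaving out any 1 of the 4 libraries, and Mrpl24 with library totals and without the IP of mouse E or the input of mouse F.

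Counts on CDS alone, scaled on their own, moved the size of the change but not its breadth. On CDS counts 74 of 76 members were higher (edgeR quasi-likelihood, 36.5% of 12211 genes called higher), with a median log2 change of 1.69, against −0.07 over all genes. Mrps5 and Mrpl3 were then called higher, by 0.32 (adjusted p = 0.0444) and 0.37 (adjusted p = 0.0308). The sign of Mrps5 thus turned between the tables, which were scaled separately, while its reads hardly differed. Its inputs held 688 and 825 reads on exons against 677 and 814 on CDS, and its IPs 445 and 506 against 441 and 501. Those not called were Mrpl50 (0.43, adjusted p = 0.0718) and Mrps2 (0.36, adjusted p = 0.0716). The CDS estimate exceeded the exon estimate in 74 of 76 members, by a median of 0.45, and in 7359 of 12156 genes, by a median of 0.15. For Mrpl22 the reads were the same in both tables, 185 and 271 in input and 343 and 423 in IP. Its estimates were still 1.28 on exon and 1.74 on CDS counts, a gap that came from the separate scaling without any difference in its reads.

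**Figure D5:**
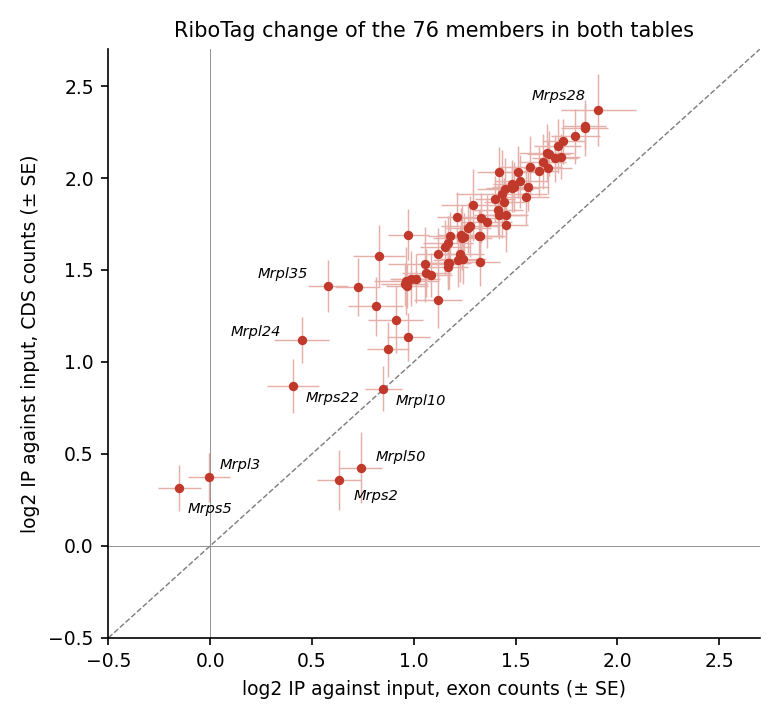
Log2 change of IP against input for the 76 members on exon counts (x axis) and on CDS counts (y axis), with bars for the SE implied by the edgeR F-test and the line of equality (dashed). All but Mrpl50 and Mrps2 lie above the line, and Mrps5 and Mrpl3 lie lowest on the exon axis.

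The gap was over 0.6 in 6 members, Mrpl35, Mrpl1, Mrpl17, Mrps17, Mrpl24 and Mrpl51, and in 321 of the 12156 genes. Mrpl35 gave 575 and 597 normalised exon counts in input and 935 and 965 in IP, but 189 and 204 on CDS in input and 551 and 598 in IP. Its CDS reads made up 45.7% of its exon reads. Mrpl24 was odd in the other way, since its CDS reads were 187% of its exon reads, and its span overlaps that of Rrnad1 in RefSeq. Mrpl50 and Mrps2, the 2 members whose CDS estimate was the lower, had the smallest shares of CDS in exon reads, 22.98% and 36.2%.

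On the log2 scale, exon reads of the typical member exceeded its CDS reads by 0.18 and 0.19 (inputs) and by 0.24 and 0.22 (IPs). Over all genes the medians were 0.56 and 0.58 for input and 0.88 and 0.98 for IP, so that the 2 fractions differed in where reads fell on genes at large. The part of this in the IP change of the members was not tested.

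The rise reached beyond the members. On exon counts 6 of 7 mitochondrial ribosomal proteins with other symbols were higher, with a median of 1.19, and 73 of 77 genes of the respiratory chain, with a median of 1.45. Of these 77 genes 1 was lower, Cox6a2 at −1.54. Among 74 cytosolic ribosomal protein genes 73 were higher, with a median of 0.91. The rest of the mitochondrial translation machinery was more mixed. Of 16 translation factors 10 rose and 3 fell, from 1.64 for Tsfm, the partner of the elongation factor Tufm, to −0.69 for Gfm2, which acts in ribosome recycling. Of 22 assembly factors 16 rose and 1 fell (median 0.77), and of 19 aminoacyl-tRNA synthetases 5 rose and 5 fell (median 0.17). The CDS table held none of the mitochondrially encoded genes under the names searched.

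Most markers of other cells fell in the same IPs. Of the lists of markers, 10 of 10 astrocyte genes were lower, with summed normalised counts of 106442 and 108860 in input and 18187 and 20606 in IP. All 10 oligodendrocyte and all 10 endothelial markers, 9 of 10 microglial markers and 9 of 10 interneuron markers were lower as well, with medians from −3.66 to −2.21. Of 7 markers of oligodendrocyte precursors 6 were lower and 1, Cspg5, was higher (0.28). Of 9 striatal markers 1 was higher, 3 were lower and 5 were not called, with a median of −0.18. Of 11 excitatory neuron markers 6 were higher and 1 lower, with a median of 0.52 and sums of 151814 and 137091 in input and 302508 and 273646 in IP. With CDS counts 6 of these 11 were higher and 3 lower, with a median of 0.38. No marker in any list was at 0. The part of this shift between markers of cell types in the rise of the members was not tested.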

How the data were processed

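Ribosome profiling and poly(A) RNA-Seq libraries of 6 mice (12 libraries) were compared. The authors deposited unnormalised read counts per gene, covering CDS in all libraries (20504 genes) and exons in the 8 RNA-Seq libraries (23352 genes). They trimmed footprint reads, clipped poly(A), removed rRNA reads with Bowtie2, aligned with TopHat2 to mm10 (submitters' processing notes) and counted with HTSeq in strict intersection mode. Strict counting drops reads shared by genes, and use of strand is not given in the sources used here.

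Changes were tested with edgeR 4.0.16 in R 4.3.3 (TMM, quasi-likelihood F-test, Benjamini-Hochberg over all genes, threshold 0.05) with genes kept where counts averaged 37 or more over the libraries of the test, which all 76 members passed in every test. TE used DESeq2 1.42.0 size factors, over mice A to D together, and genes with at least 75 counts summed over both vehicle mice in each kind of library. IP and input were scaled separately from these, exon and CDS counts each on their own. RiboDiff, which the study used, was replaced by edgeR's interaction term. The tests were also checked on simulated data, where the share of false calls among all calls lay above the threshold of 0.05 in each test.

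Each mouse letter marks 1 animal, which pairs its libraries, but the main tests of TE and of IP had no term for the mouse. The differences between mice correlated at 0.241 (A and B) and 0.225 (C and D) between RNA-Seq and footprints over 11649 genes, and at 0.558 (E and F) between input and IP over 13254 genes.

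The members and all lists were chosen with earlier results of these data known. Every member was counted, and the rule for names took members called in a test (at most the 12 largest changes in each direction), the 5 highest and lowest by vehicle TE, TE change and IP change, the 5 with the most vehicle footprints, Mrpl12, the S18 paralogues, Mrps30 and Mrps36. Where a member fell under several of these, its values are given once. Roles in the ribosome were assigned from general knowledge. Other members are named where a small count or a gap between tables called for it, after their values were seen. Alternatives were RLE factors, library totals, DESeq2, other count limits, the other table, the mouse as a block and leaving out libraries. Levels per length, planned as a description, were not computed for want of lengths, so levels are not compared between genes. RefSeq names 6 pseudogenes after members, and shared reads could blur Mrpl23, Mrpl27, Mrpl48 and Mrps36.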

Additional observations from a re-analysis of the deposited data

How the results depend on the processing

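With 2 mice per group, the 95% intervals of the members' TE changes had a median half-width of 0.37 on the log2 scale. The replicate block by mouse left 0 members called in TE (median −0.03) and 74 in IP (median 1.26), and raised the TE calls over all genes from 9 higher and 93 lower to 31 and 116. No member was called for TE or RNA under any alternative run. For footprints the count of members called higher and of members called lower each ran from 0 to 1 over the libraries left out, the 1 being Mrpl50 in both. Leaving out 1 mouse with both its libraries moved the member median of the TE change from −0.08 to −0.03. Leaving out 1 library moved the medians from −0.034 to 0.034 (RNA), −0.036 to −0.005 (footprints) and 1.23 to 1.35 (IP, with 72 to 73 members higher). The IP median was 0.98 with library totals, with 72 members higher and 1 lower (Mrps5), 1.34 with a limit of 10 counts, 1.35 without a limit and 1.69 on CDS counts, and the fold limit left 57 members.

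Mrpl3, near 0 in IP, turned positive at 0.0245 with RLE factors and with DESeq2, 0.0776 with a limit of 10 counts, 0.0832 without one and 0.37 on CDS counts, and ran from −0.0830 to 0.0554 over libraries left out. Mrps5 turned to 0.32 on CDS counts. The median vehicle TE of the members was 0.0321 with library totals and ran from 0.101 to 0.134 over single mice, and relative to all genes it was 0.114 in both mice together, 0.0393 with a limit of 200 counts and 0.0688 to 0.134 over single mice. Calls over all genes rose for RNA from 7 higher and 11 lower to 9 and 20 with library totals, 7 and 21 with DESeq2 and 30 and 48 without a count limit, and for footprints from 5 and 105 to 60 and 204 without one. The causes were not tested. Levels per length were not run.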
